A study of Mus musculus with 24 samples.

Results

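The Egr factors and their Nab corepressors were described as a small family of 6 genes, Egr1, Egr2, Egr3, Egr4, Nab1 and Nab2, in HL-1 cells, a beating line derived from mouse atrial cardiomyocytes. The 6 were found by symbol in a count table of 20351 protein-coding genes, and all 6 passed the filter on low counts that left 14411 genes for testing. Poly(A) RNA had been sequenced from 24 libraries that form 4 groups of 6. Every culture had carried an adenovirus for 48 h, given at a multiplicity of infection of 30. MuRF1 knockdown cells, stretched and non-stretched, received a short hairpin RNA against MuRF1, the muscle ubiquitin ligase encoded by Trim63. Control cells, stretched and non-stretched, received a scrambled hairpin. Stretched cells were strained by 15% at 1 Hz for 60 min on flexible plates and harvested directly afterwards, and non-stretched cells lay in parallel plates for 0 min of stretch. The stretch is called uniaxial in one label and biaxial in another. The cells had been moved to serum-free medium, and the knockdown was transient, in 1 immortalised line.

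Egr proteins are zinc finger transcription factors that bind GC-rich sites near promoters. Their genes are immediate early genes: growth factors, depolarisation or mechanical load switch them on within minutes, largely through serum response factor (SRF), its Elk partners and the ERK kinases. Nab1 and Nab2 bind Egr proteins and turn them from activators into repressors, Nab2 in part by recruiting the NuRD chromatin complex, and Egr proteins in turn activate the Nab2 gene, which closes a feedback loop. In heart muscle Egr1 is known as an early responder to pressure load, and Nab1 is known to restrain hypertrophic growth.

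The promoters of Egr2 and Egr4 are shown because these were the Egr genes called higher with stretch, Egr2 in knockdown cells only. Egr1 and Egr3, which were not called, had no window, so their promoters could not be compared. Sequences of the 250 bases before annotated transcription starts came from RefSeq on the GRCm38.p6 build, and 4 of the 6 members (Egr2, Egr4, Nab1 and Nab2) had an entry. The windows below are at chr10:67537619-67537868 on the plus strand for Egr2 and at chr6:85513590-85513839 on the minus strand for Egr4, each 5′ to 3′ and ending at the base before the start. RefSeq had 1 window for Egr4 and 5 for Egr2, and the one shown for Egr2 precedes the start of its main transcript. Capitals mark the matches to a CArG box, the site that SRF binds, and to TGACG or its reverse complement CGTCA, the core of the cAMP response element.
Egr2: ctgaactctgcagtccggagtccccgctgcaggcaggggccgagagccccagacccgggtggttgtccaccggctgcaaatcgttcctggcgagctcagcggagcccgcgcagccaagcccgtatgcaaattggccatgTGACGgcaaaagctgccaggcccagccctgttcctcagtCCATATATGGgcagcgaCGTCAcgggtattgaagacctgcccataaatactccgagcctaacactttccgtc
Egr4: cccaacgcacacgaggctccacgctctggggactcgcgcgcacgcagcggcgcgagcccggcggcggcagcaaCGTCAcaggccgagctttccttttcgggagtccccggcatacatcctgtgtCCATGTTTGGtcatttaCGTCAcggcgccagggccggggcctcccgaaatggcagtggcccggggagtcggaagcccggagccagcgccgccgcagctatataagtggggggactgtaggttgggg
The Egr2 window held an exact CArG box, CCATATATGG, at bases -72 to -63 from the start, with TGACG at -111 to -107 and CGTCA at -55 to -51. Of the other 4 Egr2 windows, those of the starts 67537870 and 67537930 overlap the one shown and held the same matches, and that of the start 67535499 held no match. The window of the start 67537566 held another exact CArG box at -72 to -63 from its own start, a CArG box with 1 C in its core at -117 to -108, 3 matches to CCGGAA on either strand, 2 of which overlap (a core of the site that Elk factors bind, found in 12.0% of windows) and no TGACG. The Egr4 window held CCATGTTTGG at -126 to -117, which is a CArG box apart from 1 G in its core, with CGTCA at -177 to -173 and at -109 to -105. Searched on both strands, an exact CArG box was found in 1.47% of 32851 RefSeq windows of this length, a CArG box with at most 1 G or C in its core in 8.59%, and TGACG in 17.8%. An exact box is also a match of the looser pattern, so these shares overlap. These are letter matches, and binding was not measured.

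The Nab windows were searched for 2 forms of the site that Egr proteins bind. The Nab1 window, at chr1:52500449-52500698 on the minus strand, held GCGGGGGCG at bases -38 to -30, found in 2.57% of windows. It also held GCGTGGGCG at -109 to -101 and, on the other strand, at -141 to -133, a form found in 0.536% of windows. The same window held CGTCA at -123 to -119. Most of that window lies in the first exon of the main Nab1 transcript of GENCODE, release vM21. The Nab2 window, which ends within a few bases of the start of the main Nab2 transcript, held none of the patterns searched for, and the windows of Egr2 and Egr4 held neither Egr form.

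**Figure D1:**
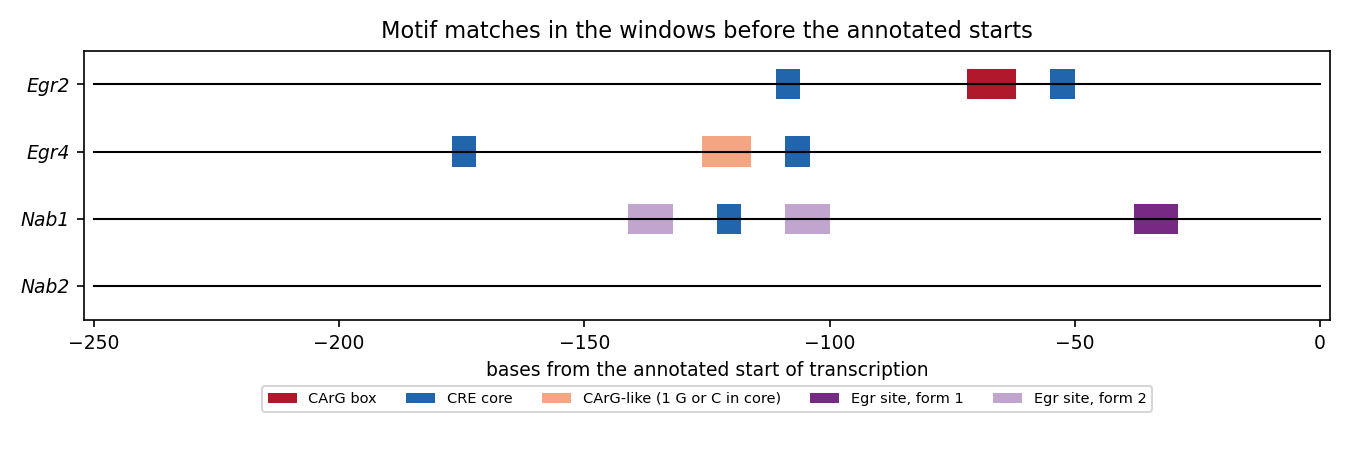
Matches to the searched patterns in the RefSeq windows of Egr2, Egr4, Nab1 and Nab2, by distance in bases from the annotated start of transcription (0, right edge). Egr2, of which only the window of the main transcript is drawn, carries a CArG box between 2 cores of the cAMP response element (CRE). Egr4 carries a CArG-like match between 2 such cores. Nab1 carries 3 matches to Egr sites (form 1 is GCGGGGGCG and form 2 is GCGTGGGCG) and 1 CRE core, and Nab2 has no match.

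In GENCODE vM21 on GRCm38, each Egr gene has a main transcript of 2 exons. Egr2 (ENSMUSG00000037868) spans chr10:67535475-67542188 on the plus strand, Egr3 (ENSMUSG00000033730) spans chr14:70077203-70082614 on the plus strand, and Egr4 (ENSMUSG00000071341) spans chr6:85511121-85513589 on the minus strand. Nab1 (ENSMUSG00000002881) spans chr1:52457294-52500679 on the minus strand with 8 exons. Nab2 (ENSMUSG00000025402) spans chr10:127660918-127668568 on the minus strand with 7 exons, and on the opposite strand it overlaps Stat6 by 40 bases, the antisense gene Gm16229 by 1646 bases and Nemp1 by 1668 bases. The overlap with Nemp1 lies outside the span of the main Nab2 transcript, the other two inside it. The library kit kept strand, but whether the counting used it is not given in the sources used here, so reads in these overlaps are uncertain.

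Libraries held between 23564268 and 54755203 counts, so that 1 count was worth 0.0185 to 0.0409 CPM after TMM scaling, the unit of every level below. Trim63, the target of the hairpin, was at 68.5 CPM in stretched knockdown cells against 781 CPM in stretched control cells, and at 55.7 CPM in non-stretched knockdown cells against 640 CPM in non-stretched control cells. It was 91.2% and 91.3% lower (two-sided exact permutation test, p = 0.00216 each, the smallest that 6 against 6 libraries can give). Of 14 cardiomyocyte markers, 13 averaged at least 1 CPM in every group. The exception was Nppa, at 0.238 to 0.858 CPM over all libraries, and Myh6 was also low at 1.80 to 6.95 CPM. Summed over the 14, the level was 1474 to 1543 CPM in stretched knockdown cells and 2548 to 2934 in stretched controls. Without stretch it was 1325 to 1431 CPM in knockdown cells and 2567 to 2841 in controls. Tnnt2, at 480 to 1378 CPM over all libraries, was the largest part of that sum. Nothing in the labels states whether replicates were separate cultures, so p-values measure only the spread between these libraries, which may be technical. Library codes carry a number that is constant within a group and differs between groups, so whatever it stands for cannot be told apart from the group. Stretched control replicate 5 stood apart, with the lowest count total, 1.45% mitochondrial counts against 2.49% to 3.67% elsewhere, and a TMM factor of 1.04 against 0.94 to 0.95 in the other stretched controls.

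Across the family, stretch raised Egr4 in both kinds of cell, in control cells close to the threshold, and Egr2 in knockdown cells, while knockdown lowered Nab1 and Nab2 with and without stretch. Calls are edgeR quasi-likelihood tests at a Benjamini-Hochberg adjusted p under 0.05 over all 14411 genes. In control cells stretch changed 1 of the 6 members, where 5.95% of all genes were called. In knockdown cells stretch changed 2 of the 6, where 8.93% of all genes were called. Knockdown changed 2 of the 6 under stretch, against 52.0% of all genes, and 2 of the 6 without stretch, against 57.8% of all genes. For the interaction, the stretch response in knockdown cells minus that in control cells, edgeR called 0 members where 0.0208% of all genes were called; 2 members, Egr2 and Egr4, had an unadjusted p under 0.05. There limma-voom and DESeq2 also called 0, DESeq2 giving no adjusted p for Egr2, Egr3 and Egr4. In bulk RNA, fewer cells expressing a gene and less of its RNA per cell cannot be told apart.

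**Figure D2:**
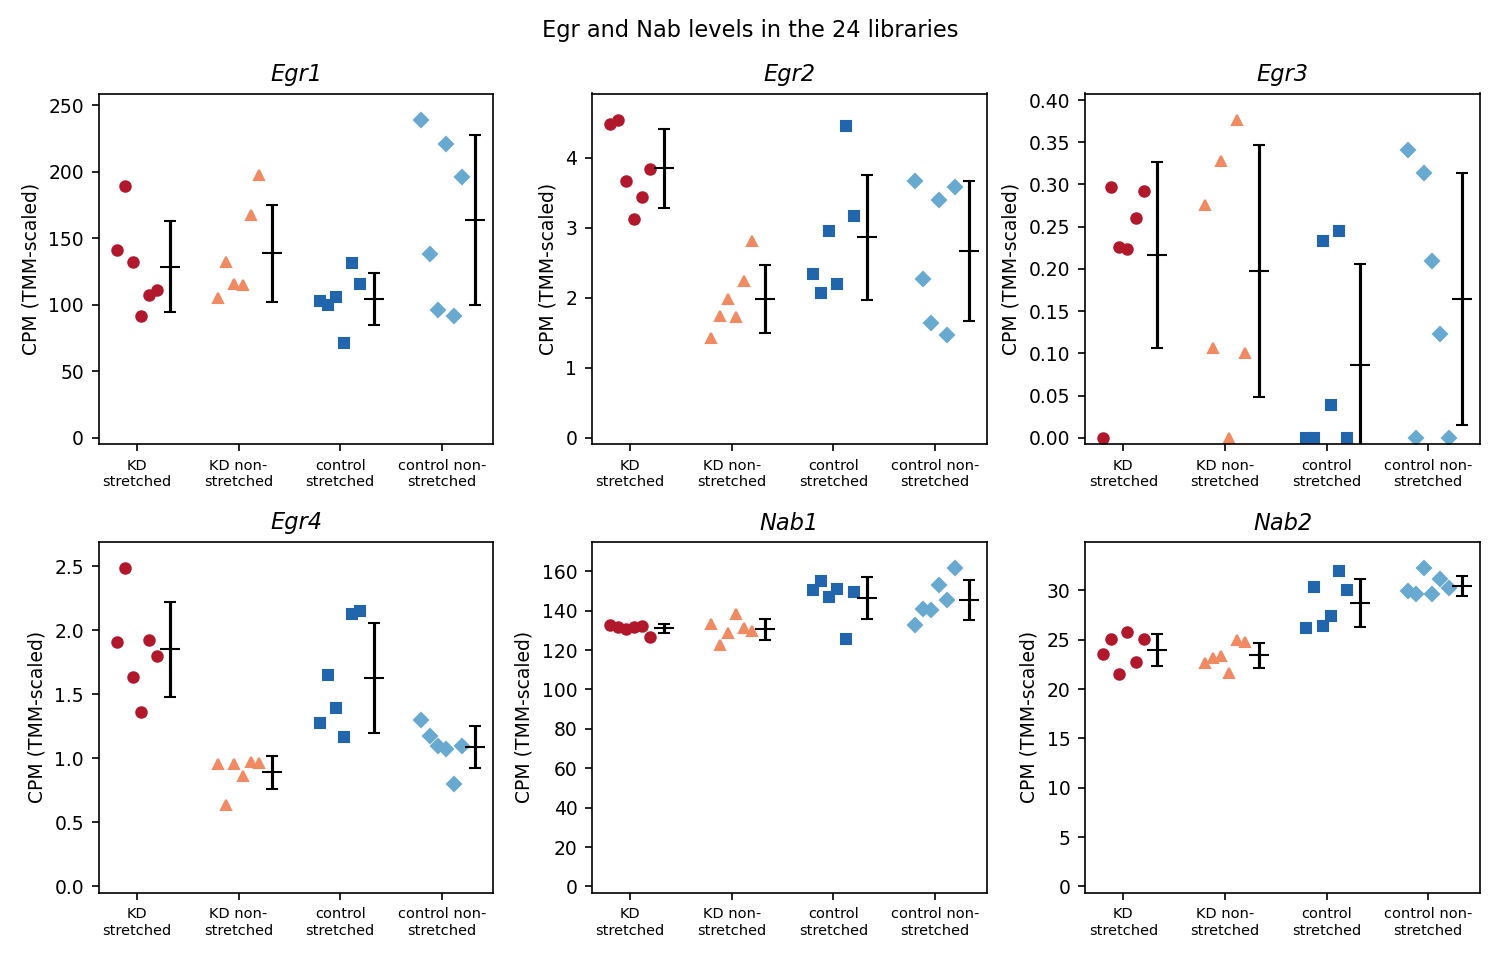
Level of each member in CPM (TMM-scaled) in every library, by group, with the points in replicate order; black bars are the group mean ± SD (n = 6). Egr2 and Egr4 points of stretched knockdown cells lie above all points of non-stretched knockdown cells, and Nab2 points of knockdown cells lie below all points of control cells.

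Egr1, the founding member of the family, was expressed at a high level in all groups and passed no test. In stretched knockdown cells it ranged from 91.7 to 189 CPM with a median of 122, and in stretched control cells from 71.2 to 131 CPM with a median of 104. In non-stretched knockdown cells it ranged from 105 to 198 CPM with a median of 124, and in non-stretched control cells from 91.6 to 239 CPM with a median of 167. The ranges of all 4 groups overlapped, and the non-stretched controls fell into a high and a low set, with replicates 1, 4 and 6 at 196 to 239 CPM and replicates 2, 3 and 5 at 91.6 to 138 CPM. Means were 104 ± 19.8 CPM in stretched controls and 164 ± 63.8 CPM in non-stretched controls (SD, n = 6 each), which is -0.65 ± 0.24 (SE) as a log2 fold change, with an unadjusted p of 0.0133 and an adjusted p of 0.115 (edgeR). The 95% interval of that fold was 0.448 to 0.901. In knockdown cells means were 129 ± 34.5 CPM with stretch and 139 ± 36.4 CPM without (SD, n = 6 each), a fold of 0.928 with an interval of 0.656 to 1.31 (adjusted p = 0.844, edgeR). Knockdown gave log2 fold changes of 0.31 with stretch and -0.24 without stretch, with adjusted p of 0.305 and 0.415 (edgeR). No change of Egr1 RNA after 60 min of stretch thus passed the test over all genes.

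The spread of Egr1 between libraries of one group was itself large. Among the 11431 genes that averaged 1 or more in log2 CPM, its SD of log2 CPM in non-stretched controls was 0.61, the 25th largest, where the median gene had 0.066. Egr2 came 28th in that group with an SD of 0.58. In stretched knockdown cells Egr1 came 76th with 0.37, in non-stretched knockdown cells 93rd with 0.36, and in stretched controls 442nd with 0.30, where the median genes had 0.056, 0.084 and 0.0997. The Nab genes lay nearer to the median gene, above it in some groups and below it in others. Nab1 had an SD of 0.025 in stretched knockdown cells, 0.11 in stretched controls, 0.059 in non-stretched knockdown cells and 0.0996 in non-stretched controls. Nab2 had 0.10 in stretched knockdown cells, 0.12 in stretched controls, 0.078 in non-stretched knockdown cells and 0.048 in non-stretched controls.

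Egr2, best known as the factor that drives myelination in Schwann cells, rose with stretch in knockdown cells. It was at 3.13 to 4.54 CPM with a median of 3.75 in stretched knockdown cells, against 1.43 to 2.80 CPM with a median of 1.86 in non-stretched knockdown cells. The groups did not overlap, as was so for 5.43% of all genes in this comparison. The fold was 1.94 with a 95% interval of 1.42 to 2.64, or 0.96 ± 0.21 in log2 (SE, adjusted p = 0.00547, edgeR), and it was higher in 6 of 6 stretched libraries than in any non-stretched one. In control cells Egr2 was at 2.07 to 4.46 CPM with a median of 2.65 under stretch, against 1.48 to 3.66 CPM with a median of 2.84 without. These ranges overlapped, and the fold of 1.04 had an interval of 0.764 to 1.43 (adjusted p = 0.904, edgeR). Stretched control replicate 5 was the highest of its group, and without it the log2 fold change in control cells was -0.084. The interaction was 0.89 ± 0.30 on the log2 scale with an unadjusted p of 0.00718 and an adjusted p of 0.326 (edgeR), so a difference between both stretch responses did not pass the test over all genes.

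Egr2 did not pass the test for knockdown. With stretch, means were 3.85 ± 0.567 CPM in knockdown cells and 2.86 ± 0.893 CPM in controls (SD, n = 6 each), and the log2 fold change was 0.46 with an adjusted p of 0.0708 (edgeR). Without stretch they were 1.99 ± 0.485 CPM in knockdown cells and 2.67 ± 0.999 CPM in controls (SD, n = 6 each), and the log2 fold change was -0.43 with an adjusted p of 0.0956 (edgeR). Both values lay near the threshold and single libraries moved them across it. Without stretched control replicate 5 the first was 0.60 with an adjusted p of 0.0151 (edgeR). The second passed without non-stretched knockdown replicate 6 (-0.55, adjusted p = 0.0409), non-stretched control replicate 3 (-0.54, adjusted p = 0.0382) or non-stretched control replicate 5 (-0.56, adjusted p = 0.0236, edgeR). Egr2 rested on 57 to 245 counts per library. Sox10, the defining factor of Schwann cells, was at 0 to 0.163 CPM over all libraries.

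Egr4, a family member known in mice for its role in male germ cells, showed the stretch response with the smallest p in the family. In knockdown cells it was at 1.36 to 2.48 CPM with a median of 1.85 under stretch, against 0.636 to 0.971 CPM with a median of 0.956 without. The groups did not overlap. The fold was 2.09 with a 95% interval of 1.64 to 2.66, or 1.06 ± 0.17 in log2 (SE, adjusted p = 0.000115, edgeR), which ranked 114th by p among all genes. In control cells Egr4 was at 1.16 to 2.15 CPM with a median of 1.53 under stretch, against 0.800 to 1.30 CPM with a median of 1.10 without. Here the ranges overlapped, and the fold was 1.48 with an interval of 1.16 to 1.88, or 0.56 ± 0.17 in log2 (SE, adjusted p = 0.0431, edgeR). That call lay close to the threshold: it was lost in 5 of 7 alternative analyses and in 9 of the 12 fits that left out a library, with adjusted p up to 0.107, while the direction held in every one. The libraries whose removal ended it were stretched control replicates 2, 3, 5 and 6 and non-stretched control replicates 2 to 6, with log2 fold changes from 0.46 to 0.60. The interaction was 0.50 ± 0.24 on the log2 scale with an adjusted p of 0.518 (edgeR).

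Knockdown did not change Egr4 past the threshold in either state. The log2 fold change was 0.21 with stretch (adjusted p = 0.290) and -0.29 without stretch (adjusted p = 0.156, edgeR). Means were 1.85 ± 0.373 CPM in stretched knockdown cells and 1.63 ± 0.428 CPM in stretched controls, and 0.890 ± 0.131 CPM in non-stretched knockdown cells and 1.09 ± 0.166 CPM in non-stretched controls (SD, n = 6 each). Egr4 rested on 30 to 134 counts per library.

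Egr3, known for its role in muscle spindles, was at the limit of detection. Its counts were 0 to 15.9 in stretched knockdown cells, with 1 library at 0, and 0 to 9 in stretched controls, with 3 libraries at 0. They were 0 to 18.9 in non-stretched knockdown cells, with 1 library at 0, and 0 to 17 in non-stretched controls, with 2 libraries at 0. All 4 groups overlapped, the highest library reached 0.376 CPM, and no comparison passed the test (adjusted p from 0.132 to 0.951, edgeR). At this depth no difference in Egr3 was detectable.

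**Figure D3:**
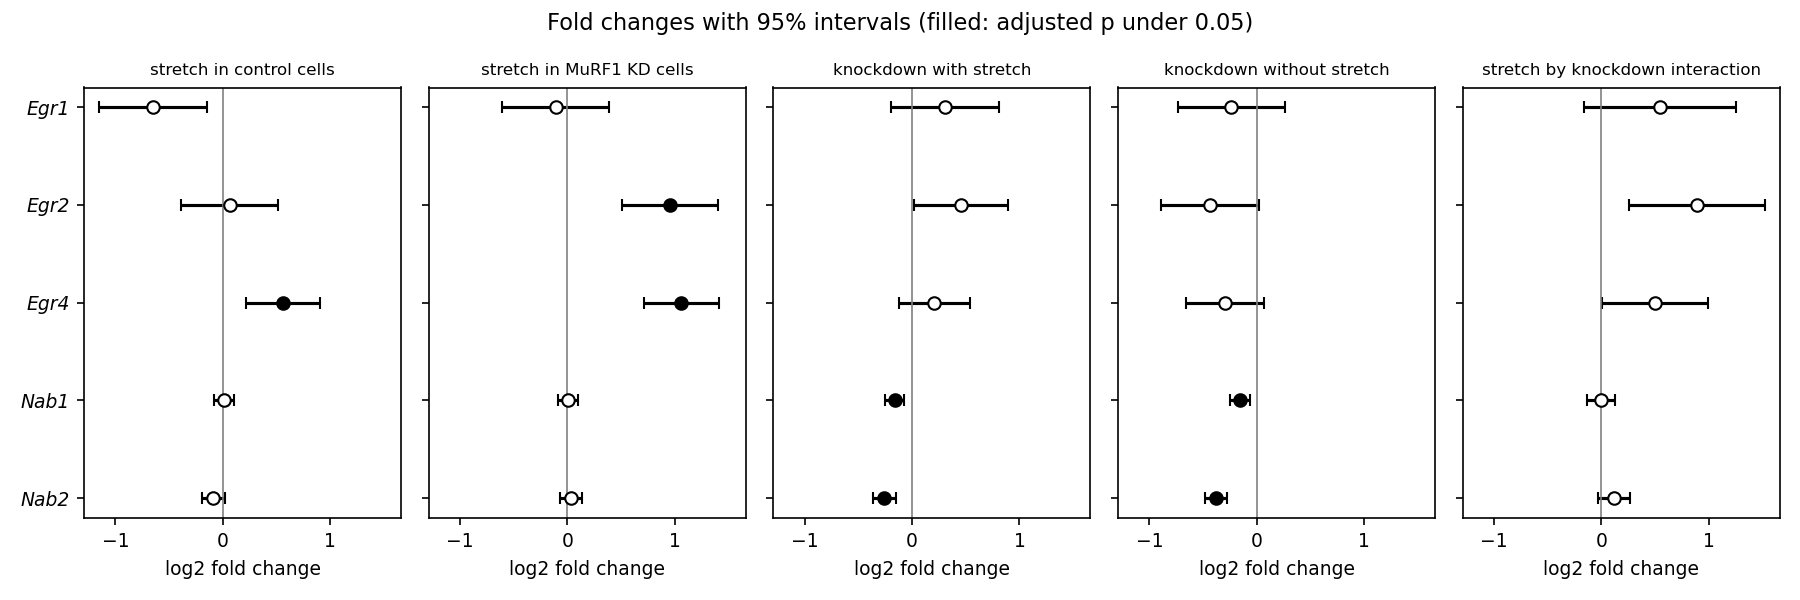
Log2 fold changes of 5 members in the 5 comparisons, with 95% intervals as bars; filled points have an adjusted p under 0.05 (edgeR) and Egr3 is left out because of its counts at 0. Egr4 is filled in both stretch panels, Egr2 in the panel of stretch in knockdown cells, and Nab1 and Nab2 in both knockdown panels.

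Per kilobase of the main transcript, which allows levels to be compared between genes, Nab1 averaged 33.7 to 37.8 CPM per kb over the 4 groups and Egr1 23.3 to 36.5. Nab2 followed at 9.07 to 11.8, Egr2 at 0.670 to 1.30, Egr4 at 0.414 to 0.862 and Egr3 at 0.0219 to 0.0549 CPM per kb. Single libraries of Nab1 and Egr1 overlapped in level per kb, as did those of Egr2 and Egr4, whereas Nab2 lay apart from its neighbours in every library. Egr1 and Nab1 thus accounted for most of the family's RNA.

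Egr1 and Egr2 went up and down together between libraries of the same group. Their deviations from the group mean in log2 CPM had a Pearson r of 0.90 and a Spearman rho of 0.90 over the 24 libraries, and r was 0.86 without the 2 libraries with the most extreme Egr1. Within groups of 6, r was 0.89 in stretched knockdown cells, 0.77 in stretched controls, 0.92 in non-stretched knockdown cells and 0.99 in non-stretched controls. Egr4 followed less closely, with r = 0.58 against Egr1 and r = 0.58 against Egr2. Over the 24 libraries Nab1 and Nab2 did not move with Egr1, with r of -0.10 and 0.10, although single groups differed. For Nab1 they ran from -0.62 in stretched controls to 0.22 in stretched knockdown cells. For Nab2 they ran from -0.77 in non-stretched controls to 0.84 in non-stretched knockdown cells. These values describe the libraries and carry no test, since genes of one library share its depth and scaling.

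**Figure D4:**
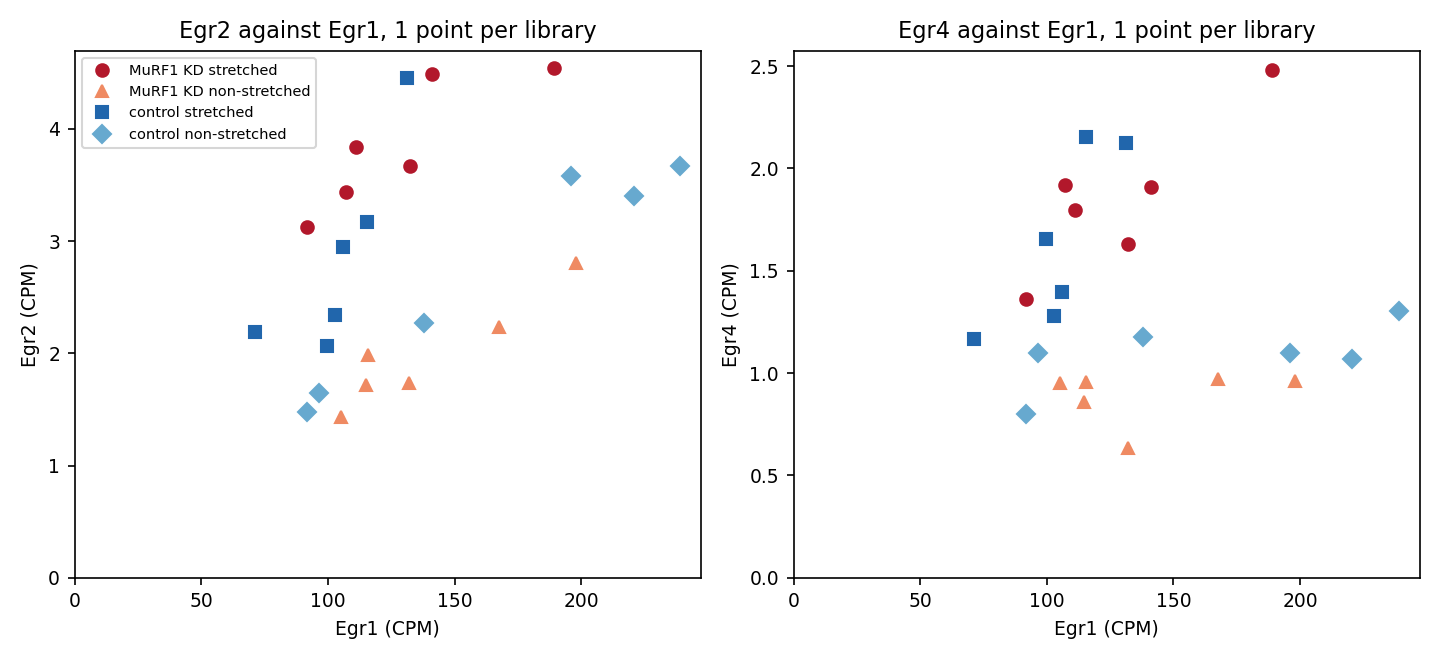
Egr2 (left) and Egr4 (right) against Egr1, in CPM, with 1 point per library and a symbol per group. Points of stretched and non-stretched cells lie along separate bands, with more Egr2 and more Egr4 at a given Egr1 level in the stretched libraries.

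Because Egr1 and Egr2 moved together, each library's ratio of Egr2 or Egr4 counts to its own Egr1 counts was also taken, a measure that does not depend on depth or scaling and was chosen after the values had been seen. In knockdown cells there were 2.40 to 3.45 Egr2 counts per 100 Egr1 counts under stretch and 1.32 to 1.72 without. In control cells there were 2.08 to 3.399 under stretch and 1.53 to 1.83 without. In both kinds of cell every stretched library thus stood above every non-stretched one, and this held with and without stretched control replicate 5. Mean ratios of Egr2 were 3.07 ± 0.407 and 1.44 ± 0.151 in stretched and non-stretched knockdown cells, and 2.73 ± 0.491 and 1.64 ± 0.110 in stretched and non-stretched controls (SD, n = 6 each). Averaged on the log2 scale instead, the Egr2 ratio had a fold with stretch of 2.12 in knockdown cells and of 1.64 in control cells.

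The same held for Egr4. In knockdown cells there were 1.23 to 1.79 Egr4 counts per 100 Egr1 counts under stretch and 0.482 to 0.906 without, and in control cells 1.24 to 1.86 under stretch and 0.485 to 1.14 without. Averaged on the log2 scale, the Egr4 ratio had a fold with stretch of 2.23 in knockdown cells and of 2.18 in control cells. Set against Egr1 in the same way, 28 of the other 14410 genes (0.194%) stood higher without overlap in stretched knockdown cells and 133 (0.923%) in stretched control cells. The lower Egr1 mean of stretched controls, a difference that did not pass the test, enters all of the ratios in control cells.

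**Figure D5:**
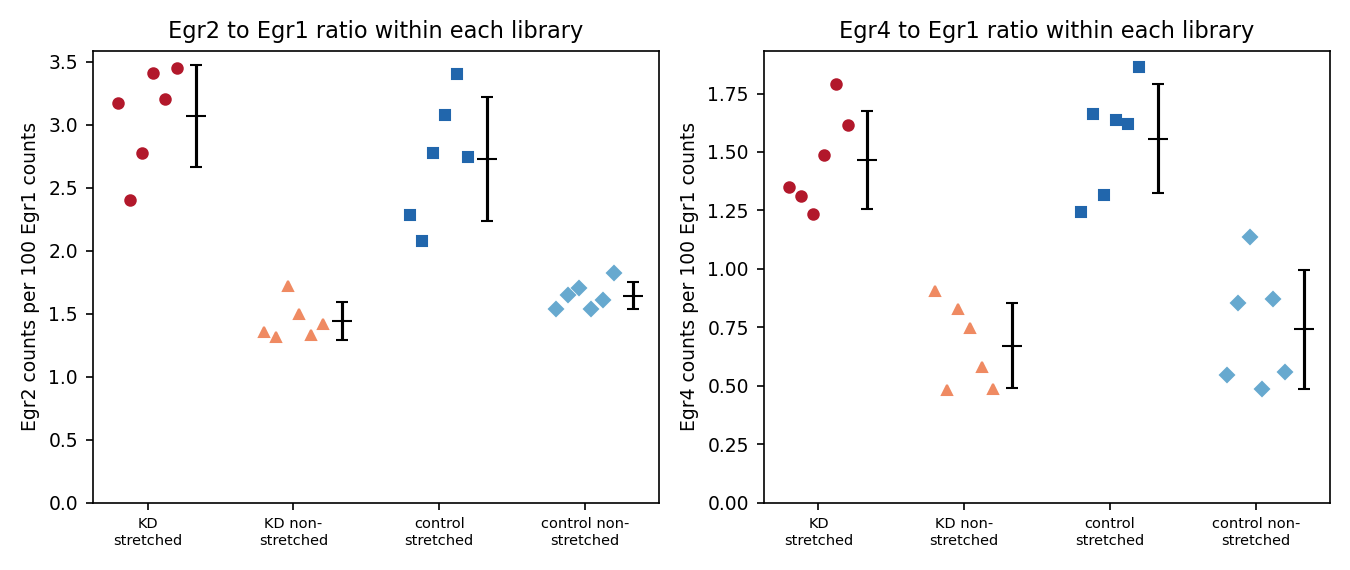
Egr2 (left) and Egr4 (right) counts per 100 Egr1 counts in every library, by group, with mean ± SD (n = 6) as black bars. Egr2 lies at 2.08 or above in all stretched libraries and at 1.83 or below in all non-stretched ones; Egr4 lies at 1.23 or above and at 1.14 or below.

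Nab2, the corepressor that Egr proteins themselves induce, was lower in knockdown cells in both states and did not pass the test for stretch. With stretch it was at 21.5 to 25.8 CPM with a median of 24.3 in knockdown cells, against 26.1 to 32.0 CPM with a median of 28.7 in controls. Without stretch it was at 21.6 to 25.0 CPM with a median of 23.3 in knockdown cells, against 29.6 to 32.2 CPM with a median of 30.1 in controls. The groups did not overlap in either state, as was so for 31.9% of all genes with stretch and 37.8% without. The log2 fold changes were -0.26 ± 0.051 with stretch (SE, adjusted p = 0.000107) and -0.38 ± 0.050 without stretch (SE, adjusted p = 3.01e-07, edgeR), or folds of 0.837 and 0.769. Stat6, which overlaps Nab2 on the opposite strand, had log2 fold changes of -0.32 (adjusted p = 9.70e-09) and -0.35 (adjusted p = 9.08e-10, edgeR) in these comparisons. Nemp1, listed in the count table under its older symbol Tmem194, had -0.11 (adjusted p = 0.00975) and -0.10 (adjusted p = 0.0138, edgeR). No value is given for Gm16229, since the table holds protein-coding genes. The part of these genes in the Nab2 values was not tested. For stretch, Nab2 had a fold of 1.02 with an interval of 0.951 to 1.10 in knockdown cells and of 0.941 with an interval of 0.875 to 1.01 in control cells (adjusted p = 0.761 and 0.321, edgeR).

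Nab1, the more abundant corepressor, was also lower in knockdown cells. With stretch it was at 127 to 133 CPM with a median of 132 in knockdown cells, against 126 to 155 CPM with a median of 150 in controls. Without stretch it was at 123 to 139 CPM with a median of 130 in knockdown cells, against 133 to 161 CPM with a median of 143 in controls. The ranges overlapped in both states, under stretch through control replicate 5, the only stretched control below 147 CPM. The log2 fold change was -0.16 ± 0.044 with stretch (SE, adjusted p = 0.00267) and -0.16 ± 0.043 without stretch (SE, adjusted p = 0.00290, edgeR), or folds of 0.894 and 0.896. Stretch left Nab1 with folds of 1.00 in knockdown cells (interval 0.942 to 1.07) and 1.01 in control cells (interval 0.945 to 1.07), with adjusted p of 0.966 and 0.934 (edgeR). Summed levels of the cardiomyocyte markers were lower in knockdown cells too, as given above. So was the sum of 8 fibroblast markers, with 66.7 to 70.8 CPM in stretched knockdown cells against 132 to 154 CPM in stretched controls, and 56.7 to 69.9 CPM in non-stretched knockdown cells against 154 to 162 CPM in non-stretched controls. That sum was mostly the collagen gene Col1a1, at 48.1 to 150 CPM over all libraries. Pdgfra was at 6.04 to 8.47 CPM, Postn at 0.872 to 3.801 and Dcn at 0.475 to 3.16, and Col1a2, Lum, Tcf21 and Thy1 did not pass 0.486 CPM in any library. The part of either sum in the Nab values was not tested.

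Upstream of the Egr genes, SRF itself rose with stretch in both kinds of cell. In knockdown cells Srf averaged 156 ± 5.80 CPM with stretch and 120 ± 7.64 CPM without, and in controls 190 ± 8.67 CPM with stretch and 146 ± 11.1 CPM without (SD, n = 6 each). Its log2 fold change was 0.37 in both (adjusted p = 3.13e-06 and 7.27e-06, edgeR). Of 10 measured SRF and TCF regulators, 2 rose and 0 fell with stretch in knockdown cells, the other being Myocd, the SRF coactivator of heart and smooth muscle (0.15, adjusted p = 0.00787, edgeR), and 1 rose and 0 fell in control cells, where stretch changed 8.93% of all genes in knockdown and 5.95% in control cells. The list's median log2 fold change was 0.086 in knockdown and -0.021 in control cells, where the medians over all genes were -0.0054 and -0.011. With knockdown 1 rose and 5 fell in each state. This made 6 of 10 called, where 52.0% of all genes were called with stretch and 57.8% without. The list also holds the CREB-family genes Creb1, Crem and Atf1, and the 1 that rose was Crem (0.46 with stretch and 0.41 without). Myocd fell by 0.79 with stretch and by 0.83 without, and the SRF coactivators Mkl2 (-0.40 and -0.57) and Mkl1 (-0.39 and -0.46) fell as well, all with adjusted p at or below 1.60e-08 (edgeR).

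The ERK cascade list held 15 genes, among them kinases downstream of ERK (the Rps6ka genes) and the scaffold Ksr1. It had 1 member called for stretch, where stretch changed 5.95% of all genes in control cells and 8.93% in knockdown cells. The kinase Rps6ka1 fell by 0.19 on the log2 scale in stretched controls (adjusted p = 0.00164, edgeR), at 44.0 ± 2.42 CPM against 50.2 ± 1.03 CPM without stretch. In knockdown cells edgeR called 0 for stretch, with 1 member at an unadjusted p under 0.05, and DESeq2 and limma-voom also called 0. With knockdown, 2 rose and 7 fell in each state, 9 of 15 called against the same 52.0% and 57.8% of all genes. Mapk3, which encodes ERK1, was at 173 ± 4.73 CPM in stretched knockdown cells and 224 ± 9.52 CPM in stretched controls, a log2 fold change of -0.38, and at 172 ± 6.43 CPM in non-stretched knockdown cells and 240 ± 7.05 CPM in non-stretched controls, a log2 fold change of -0.48. The kinase Rps6ka3 (-0.37 and -0.40) and the scaffold Ksr1 (-0.31 and -0.46) fell in both states. The list's medians were -0.076 with stretch and -0.072 without, where the medians over all genes were 0.0025 and 0.0087.

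Of 14 subunits of NuRD, the complex that Nab2 recruits, edgeR called 0 for stretch in control cells, with 2 at an unadjusted p under 0.05 and 0 by DESeq2 and limma-voom. In knockdown cells Mta1 fell by 0.15 with stretch (adjusted p = 0.0408, edgeR), near the threshold. Mta1 was the 1 of 14 called there. Over all genes, stretch changed 5.95% in control cells and 8.93% in knockdown cells. The list's count of 1 lower held in 5 of 7 alternative analyses and in only 3 of the 12 fits that left out a library. Knockdown raised 2 and lowered 4 with stretch, 6 of 14 against 52.0% of all genes, and raised 2 and lowered 5 without, 7 of 14 against 57.8%. The helicase Chd3 was at 164 ± 6.11 CPM in stretched knockdown cells and 243 ± 25.7 CPM in stretched controls, and at 150 ± 10.4 CPM in non-stretched knockdown cells and 260 ± 9.31 CPM in non-stretched controls, log2 fold changes of -0.57 and -0.80. The histone chaperone Rbbp4 had -0.22 and -0.26. Gatad2b fell by 0.16 without stretch, and Mta2 rose by 0.089 with stretch (adjusted p = 2.40e-05 and 0.00292, edgeR). The list's medians, -0.0053 with stretch and -0.030 without, lay near those over all genes.

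Among 11 tested genes whose proteins bind Egr factors or share their sites, stretch changed 1 in each kind of cell. Over all genes, stretch changed 8.93% in knockdown cells and 5.95% in control cells. The coactivator Ep300 rose by 0.098 in knockdown cells (adjusted p = 0.0320) and Nfatc1 fell by 0.17 in control cells (adjusted p = 0.0129, edgeR). The count of 1 higher in knockdown cells held in 4 of 7 alternative analyses and in only 4 of the 12 fits that left out a library. Knockdown raised 5 and lowered 1 with stretch, and raised 4 and lowered 2 without, which is 6 of 11 in each state against 52.0% and 57.8% of all genes. Wt1, a zinc finger factor that binds Egr-like sites, was at 4.30 ± 0.311 CPM in stretched knockdown cells and 7.63 ± 0.249 CPM in stretched controls, and at 4.17 ± 0.443 CPM in non-stretched knockdown cells and 7.27 ± 0.466 CPM in non-stretched controls (SD, n = 6 each). Its log2 fold changes were -0.83 and -0.80 (adjusted p = 2.08e-11 and 3.52e-11, edgeR). Trp53, the p53 tumour suppressor, had 0.17 and 0.18, Nfatc1 had 0.27 with stretch, and Cebpb had 0.26 without. The list's medians for knockdown were 0.082 with stretch and -0.0081 without.

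Of 38 genes reported elsewhere as direct Egr targets, 35 were tested. Stretch raised 5 and lowered 0 in knockdown cells, with 13 at an unadjusted p under 0.05, and raised 3 and lowered 4 in control cells. The 5 of 35 stand against 8.93% of all genes called in knockdown cells, and the 7 of 35 against 5.95% in control cells. Thbs1, the matrix protein thrombospondin, had the largest rise of these, at 74.3 ± 5.44 CPM with stretch and 35.2 ± 3.50 CPM without in knockdown cells, and at 83.2 ± 6.83 CPM with stretch and 53.8 ± 9.36 CPM without in controls. Its log2 fold changes were 1.08 and 0.63 (adjusted p = 4.81e-08 and 0.000112, edgeR). In knockdown cells Trib1 (0.29) and Cdk5r1 (0.28) rose too. In control cells the coagulation starter F3 rose by 0.21 (adjusted p = 0.00469) and the matrix protein Fn1 fell by 0.15 (adjusted p = 0.00922, edgeR). The list's medians for stretch were 0.032 in knockdown and -0.0036 in control cells.

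Knockdown moved more of these targets, in both directions: 11 rose and 13 fell with stretch, and 13 rose and 15 fell without. The cell cycle inhibitor Cdkn1a was at 174 ± 5.56 CPM in stretched knockdown cells and 105 ± 3.99 CPM in stretched controls (log2 fold change 0.72), and it had 0.82 without stretch. Arc, a neuronal early gene, had 1.00 with stretch, and Fn1 had -0.87 without, at 1081 ± 72.9 CPM in knockdown cells and 1977 ± 35.4 CPM in controls. All of these had adjusted p at or below 1.30e-15 (edgeR). The share of called targets was read against 52.0% and 57.8% of all genes, and the medians were 0.015 with stretch and -0.060 without. For the interaction edgeR called 0 members of each of the 5 lists, with 3, 1, 3, 2 and 10 at an unadjusted p under 0.05 in the ERK, SRF and TCF, NuRD, partner and target lists; limma-voom also called 0, and DESeq2 called 1 partner and 1 target.

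Other genes followed single members closely from library to library, judged by the r of deviations from group means over the 24 libraries among the same 11431 genes. Egr1 was followed most closely by Cyr61 (r = 0.95), Ctgf (0.94) and Btg2 (0.93), all known as early response genes, and Egr2 by Jun (0.91), Egr1 (0.90) and Cyr61 (0.88). Their own values between conditions are given for comparison with those of the Egr genes. Jun rose with stretch by 0.69 in knockdown cells (adjusted p = 0.000103) and by 0.69 in control cells (adjusted p = 0.000344, edgeR), and Ctgf rose by 0.39 (adjusted p = 0.0119) and 0.40 (adjusted p = 0.0190). Cyr61 had 0.32 (adjusted p = 0.288) and 0.19 (adjusted p = 0.585, edgeR) for stretch. Btg2 had 0.17 in both kinds of cell (adjusted p = 0.186 in knockdown and 0.213 in control cells, edgeR). With knockdown Cyr61, Ctgf, Btg2 and Jun all rose. Cyr61 rose by 0.88 with stretch and by 0.75 without (adjusted p = 0.000219 and 0.000967). In the same order Ctgf rose by 0.87 and 0.88 (adjusted p = 5.39e-08 and 4.59e-08). Btg2 rose by 0.58 in both states (adjusted p = 7.44e-07 and 6.48e-07), and Jun by 0.60 and 0.59 (adjusted p = 3.19e-05 and 3.97e-05, edgeR). Nab1 was followed by Rdx (0.95), Cul1 (0.94) and Gnai3 (0.94), Nab2 by Wwp2 (0.81), Ralb (0.79) and C1qtnf6 (0.79), Egr4 by Zfp9 (0.81), Msi1 (0.73) and Mlph (0.72), and the sparse Egr3 by Crtc2 (0.82), Exoc7 (0.77) and Dbn1 (0.75). Likeness was the criterion by which these genes were picked, so it carries no test.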

How the data were processed

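Poly(A) RNA was sequenced from 24 HL-1 libraries, prepared with a stranded kit per the labels' protocols. The authors deposited estimated counts per gene. Tools listed in the submitters' processing notes are kallisto (0.44.0), DESeq2 (1.18.1) and R (3.4.4), with the GRCm38.p6 build. The annotation release is not given in the sources used here. Another deposited table holds the authors' normalized signal, which served only as an alternative scaling. Of the estimated counts, 36.6% were whole within 1e-09.

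The estimated counts were rounded and tested with edgeR 4.0.16 (R 4.3.3): TMM scaling, filterByExpr (minimum count 10, minimum total 15), robust quasi-likelihood fit, 4 group coefficients, 24 libraries, 20 residual degrees of freedom, and Benjamini-Hochberg adjustment over 14411 genes. Correlations used log2 CPM with a prior count of 2. Alternatives were DESeq2 size factors, the authors' factors, no filter, DESeq2 1.42.0, limma-voom 3.58.1, only the groups compared, replicate number as a block, and leaving out each library. The test was checked on simulated data. Named were the 6 members, Trim63, up to 3 called genes per list and comparison with the smallest adjusted p, and the 3 genes most like each member. Stat6 and Nemp1 (Tmem194, matched through RefSeq synonyms) were added for their overlap with Nab2. Creb1, Crem and Atf1 were added to describe the SRF and TCF list. A gene named by the rule is not reported here. The members and lists were chosen with earlier results of these data known. Positions and transcript lengths came from GENCODE vM21.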

Additional observations from a re-analysis of the deposited data

Results flagged for a closer look

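In 4 of the 24 sets of 6 libraries (6 members in 4 groups), 1 library lay far from the others by Dixon's test at the 95% level, which chance alone gives in about 1 of 20 sets. Nab1 was at 126 CPM in stretched control replicate 5, where the nearest library had 147 CPM and the highest 155; this is the library with the lowest count total. Nab1 was also at 127 CPM in stretched knockdown replicate 6, where the others lay between 131 and 133 CPM. Egr4 was at 0.636 CPM in non-stretched knockdown replicate 2, where the others lay between 0.860 and 0.971 CPM. Egr3 was at 0 CPM in stretched knockdown replicate 1, where the others lay between 0.223 and 0.296 CPM, a range of few counts.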

How the results depend on the processing

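Of 671 gene values over 32 results, 622 kept their direction and, where an adjusted p was given, their side of the threshold. DESeq2 gave none for Egr2, Egr3 and Egr4 in the interaction and for Egr3 in both stretch comparisons. The calls of Egr2 and Egr4 for stretch in knockdown cells, and of Nab1 and Nab2 for knockdown in both states, held in all alternatives and left-out libraries. The Egr4 call for stretch in control cells was lost with the authors' factors (0.58), no filter (0.57), limma-voom (0.51), only the groups compared (0.58) and the replicate block (0.55). In these the adjusted p ran from 0.0523 with no filter to 0.101 with only the groups compared (edgeR for both). Leaving out libraries gave log2 fold changes of 0.46 to 0.65. Egr2 for knockdown with stretch passed with the authors' factors (0.52), limma-voom (0.53) and only the groups compared (0.47), and ran from 0.38 to 0.60 without single libraries; without stretch it ran from -0.56 to -0.32. Values near 0 changed sign. With the authors' factors Egr2 for stretch in control cells was -0.026 and the Nab1 interaction 0.0080. Leaving out libraries gave -0.084 to 0.18 for Egr2 for stretch in control cells, -0.043 to 0.022 for the Nab1 interaction, -0.017 to 0.048 and -0.013 to 0.023 for Nab1 for stretch in control and knockdown cells, -0.25 to 0.019 for Egr1 for stretch in knockdown cells, and, for Egr3, -0.13 to 0.42 for stretch in knockdown cells and -0.059 to 0.61 for knockdown without stretch. The causes were not tested.

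Deviations of same-numbered replicates, taken over all tested genes, were little alike. Of 24 pairs 1 had r over 0.1, and 6 of 24 libraries were closest to their own number. Such values cannot show whether same-numbered libraries shared a culture or a batch. The replicate block gave 946 called genes instead of 857 for stretch in control cells and 1403 instead of 1287 in knockdown cells. For knockdown it gave 7567 instead of 7494 with stretch and 8378 instead of 8325 without, and for the interaction 9 instead of 3. Genes called for stretch in control cells were 857, but 566 with the authors' factors, 377 with only the groups compared, 568 without stretched control replicate 1 and 2023 without replicate 5; 42.9% were higher, against 60.7% with no filter and 58.9% with only the groups compared. For stretch in knockdown cells they were 1287, and 856 without stretched knockdown replicate 4. For the interaction they were 3, from 1 with the authors' factors to 122 with DESeq2, and from 0 to 109 without single libraries, 109 being without stretched control replicate 5. Among list counts, targets lower with stretch in control cells were 4, and 2 with the authors' factors, no filter or only the groups compared; NuRD members lower with knockdown under stretch were 4, and 2 in 5 of 7 alternatives; ERK members lower there were 7, and 4 with the authors' factors or no filter; single NuRD and partner calls for stretch in knockdown cells became 0 in 2 and 3 alternatives, and held in only 3 and 4 of 12 fits without 1 library (for NuRD, those without stretched knockdown replicates 3 or 6 or non-stretched knockdown replicate 4; for the partners, those without stretched knockdown replicates 2 or 5 or non-stretched knockdown replicates 1 or 3). Other list counts of 1 or 2 moved by 1 in some alternatives. Few counts limit Egr3 and widen the intervals of Egr2 and Egr4.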
